A study of Mus musculus with 14 samples.

Results

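Translation initiation and elongation factors were described as 52 genes of the 18194 with a probe set of their own on the array. A gene was taken when its symbol began with Eif or Eef and a digit, and Eif2s3x, Eif2s3y and the Eif2ak kinases were left out. Initiation factors bring the small ribosomal subunit, the initiator tRNA and the capped mRNA together at the start codon, and elongation factors then deliver aminoacyl-tRNA to the ribosome and move it along the message. eIF4E binds the cap and is held by the 4E-binding proteins until mTORC1 phosphorylates them. Many mRNAs of the elongation apparatus begin with a terminal oligopyrimidine tract (5′TOP), which places their translation under mTORC1. Heart and brain are known for eEF1A2, the form of eEF1A found in neurons and striated muscle, while eEF1A1 is made in most other cells.

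RNA was hybridized to 14 Affymetrix Mouse Genome arrays, and all mice were C57BL/6 and untreated. Hippocampus and heart of pups 7 days old each had 3 biological samples on 3 arrays. Hippocampus and heart of male mice 10 weeks old each had 2 biological samples with 2 technical arrays, whose values were averaged. Pup tissue was collected for the study and its mRNA isolated with TRIzol and a MicroFastTrack kit, whereas adult RNA was bought from Zyagen, so age and RNA source cannot be told apart in any difference between ages. The sex of the pups was not given. Nothing in the labels says that the adult samples of a tissue came from separate animals, and another label counts each adult array as a biological replicate, so p-values reflect only how far these samples vary, and part of that may be technical. Values are log2 expression levels, differences are on the log2 scale, and a difference was called when limma's p-value, two-sided and adjusted by Benjamini-Hochberg over all 18194 genes, was under 0.05. In these bulk samples fewer cells of a type and less RNA per cell cannot be told apart.

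Array medians ran from 8.73 to 8.98. Added hybridization controls read 12.8 to 13.4 on the pup arrays and 10.5 to 11.2 on the adult arrays, a shift that moved with age, and its part in the age differences was not tested. Of 8 cardiomyocyte markers, 8 were lower in hippocampus than in heart in pups and 6 in adults, and their summed level was 12.19 to 15.27 in pup hippocampus, 18.01 to 18.31 in pup heart, 12.07 to 12.26 in adult hippocampus and 17.01 to 17.40 in adult heart. Pup hippocampus replicate 1 held the top of that first range, with Actc1, a sarcomeric actin, at 14.76 against 12.49 and 10.31 in the other pup hippocampus samples. Of 8 neuron markers, 3 were called higher in hippocampus in pups and 4 in adults. None was called lower, though 3 had differences below 0 at each age. The neuron marker Camk2a read 14.08 to 14.64 in pup hippocampus and 14.88 to 15.32 in pup heart. Snap25, a synaptic vesicle fusion protein, read 9.72 to 10.12 in pup hippocampus and 7.23 to 8.06 in pup heart, while the summed neuron markers overlapped between tissues, 16.60 to 16.66 in pup hippocampus and 16.61 to 16.73 in pup heart. The summed level of 4 fibroblast markers was 16.26 to 16.95 in pup heart and 13.24 to 13.28 in adult heart, and that of 3 endothelial markers was 14.74 to 15.56 and 12.51 to 12.55. The summed level of 3 blood markers was 10.51 to 11.57 in pup heart and 11.80 to 12.40 in adult heart. The part of these cell types in the heart age differences was not tested.

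Promoter sequences were found in RefSeq (GRCm38.p6) for 41 of the 52 genes, as windows from 250 bases before to 50 bases after the annotated start. CACGTG, the E-box that MYC with MAX and the USF factors bind, reads the same on both strands and was in the windows of 12 of the 41, or 29.3%, against 8.09% of all genes with a window. Those are 27025 genes, measured here or not, and they were not matched to the members in base composition. The E-box stretches of the 6 genes among them that were called with age are shown because their levels are described below. Each is 30 bases in the direction of transcription, with the E-box in capitals.

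Eef2, chr10:81176576-81176605, plus strand: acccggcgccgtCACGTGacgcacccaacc

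Eif3f, chr7:108934335-108934364, plus strand: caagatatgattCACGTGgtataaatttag

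Eif4e, chr3:138527028-138527057, plus strand: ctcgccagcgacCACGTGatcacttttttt

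Eif4h, chr5:134639488-134639517, minus strand: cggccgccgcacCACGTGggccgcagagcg

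Eif5a, chr11:69921443-69921472, minus strand: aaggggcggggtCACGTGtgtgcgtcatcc

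Eif5a2, chr3:28781123-28781152, plus strand: actaatccgcagCACGTGgggttgccaggg

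The windows of Eif4e and Eif5a2 hold 2 E-boxes, of which 1 is shown. Of these 6 genes, 5 were called lower with age in at least 1 tissue and Eif5a2 was called higher. These calls are of the brightest probe sets. Eef2 and Eif4e in hippocampus and Eif4h in heart also had a probe set called higher. An E-box was in 5 of the 14 windowed genes called lower with age, in 1 of the 4 called higher and in 6 of the 23 called with age in neither tissue. The Eif3f stretch also holds the TATA box motif TATAAA, next to the E-box and not overlapping it. On either strand TATAAA was in the windows of 3 of the 41, Eef2, Eif3b and Eif3f, or 7.32%, against 15.7% of all genes with a window, and all 3 were called lower with age. CCGGAA, the core bound by ETS factors, was in 21 of the 41, or 51.2%, against 16.7%. CCAAT was in 14 of the 41, or 34.1%, against 41.1%. A match is a description of the letters and not of a bound site.

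Between pups and adults, 12 of the 52 genes were called in hippocampus, 2 higher in adults and 10 lower, where 16.1% of all genes were called, 8.63% higher and 7.44% lower. In heart 18 were called, 4 higher and 14 lower, where 20.6% of all genes were called, 11.2% higher and 9.38% lower. The median adult minus pup difference was -0.09 over the 52 genes and 0.10 over all genes in hippocampus, and -0.27 and 0.09 in heart. The settings that moved the member median put it between -0.28 and -0.43 in hippocampus and between -0.40 and -0.50 in heart, and percentile scaling put the heart median over all genes at -0.04. Called lower in both tissues were 7 genes, Eef1a1, Eef1b2, Eef2, Eif1ax, Eif4b, Eif4g2 and Eif5a. Of these, Eef2 and Eif4b in hippocampus and Eif4g2 in heart also had a probe set called higher. Eif2b1 alone was called higher in both. No member was called in opposite directions, and 39 of the 52 differences had the same sign in both tissues. Agreement between tissues was not counted over all genes, so it cannot be called particular to the members. Pup and adult samples did not overlap for 33 of the 52 genes in hippocampus, against 55.1% of all genes, and for 29 in heart, against 48.7%. Fewer members were called in each tissue when either of its 2 adult samples was left out, which leaves a group of 1 sample. Fewer of all genes were called then too. Without pup hippocampus replicate 1 the number of members called with age was 8 in hippocampus, and the number over all genes is not given here. Without pup heart replicate 1 the number of members called with age was 11 in heart, where 3108 of all genes were called.

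**Figure D1:**
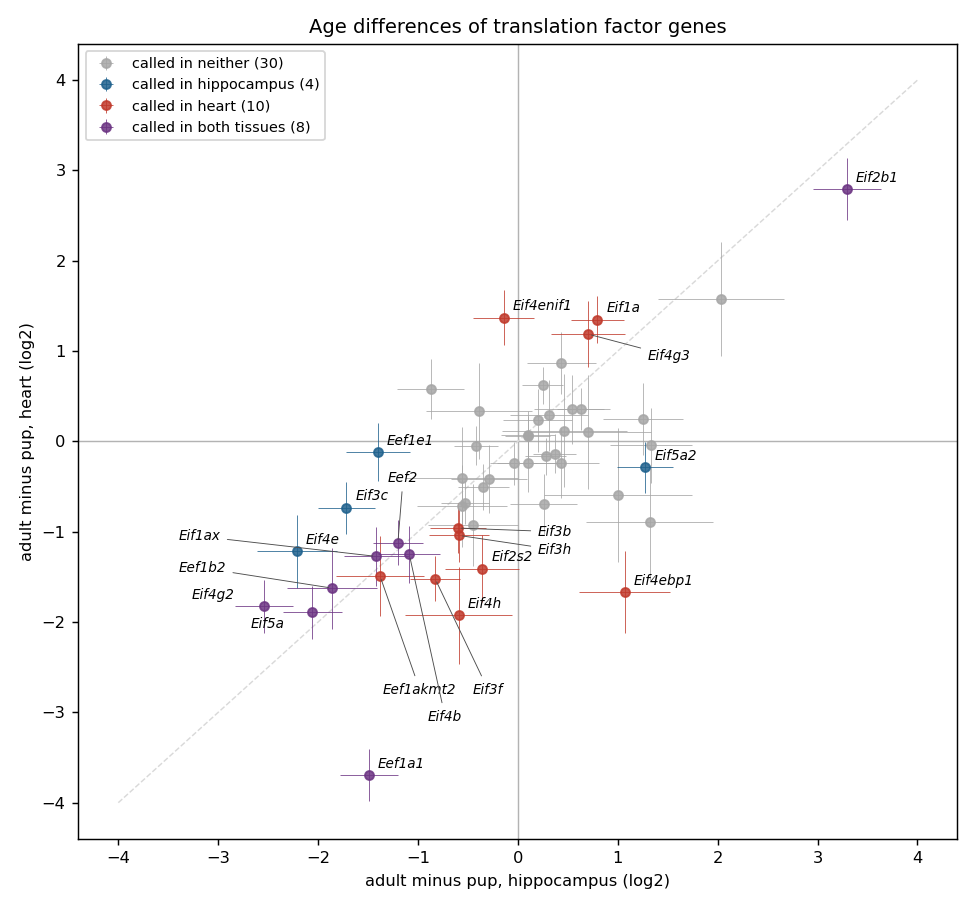
Adult minus pup difference of each of the 52 genes in hippocampus (horizontal axis, log2) against that in heart (vertical axis, log2), with bars of 1 standard error and a dashed line of equal differences. The 7 genes lower in both tissues lie at lower left, Eif2b1 lies alone at upper right, and Eef1a1 has the lowest heart difference, -3.70.

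Elongation factors had the lowest median of the groups in hippocampus, -1.30 over 6 genes, with 4 called lower and none higher. In heart their median was -0.62, with 3 called lower and none higher. Eef1a1 encodes the GTPase that carries aminoacyl-tRNA to the ribosome. It read 15.82, 15.68 and 15.71 in pup hippocampus, 15.61, 15.44 and 15.03 in pup heart, 13.85 and 14.64 in adult hippocampus, and 11.77 and 11.56 in adult heart. Adults lay below pups in both tissues, and the adult hearts lay below every other sample. The adult minus pup difference was -3.70 ± 0.29 (SE) in heart (13.0-fold lower, limma adjusted p = 0.000406, n = 3 and 2) and -1.49 ± 0.29 in hippocampus (2.81-fold lower, limma adjusted p = 0.0108). Eef1a1 had a single probe set, and its pup values were close to the highest value of the table. Near-identical retrocopies of this gene exist in the genome, so signal shared with them was not separated. The hippocampus call was lost without adult hippocampus replicate 1 (limma adjusted p = 0.0901).

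The fall of Eef1a1 was larger in heart than in hippocampus, by a difference of differences of -2.21 ± 0.41 (SE, 95% interval -3.12 to -1.29, limma adjusted p = 0.0222). It was the only member called in this test of 52, where 3.68% of all genes were called, 2.45% higher and 1.23% lower. The call was lost without pup hippocampus replicate 2 or 3, adult hippocampus replicate 2, or adult heart replicate 1 or 2, with limma adjusted p from 0.0556 to 0.0948. Without pup hippocampus replicate 1, pup heart replicate 2 or pup heart replicate 3 the number called was 2, where 420, 1002 and 873 of all genes were called.

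Eef1a2, the neuronal and muscle form, read 14.30, 13.82 and 14.29 in pup hippocampus, 12.68, 12.84 and 12.48 in pup heart, 12.75 and 13.78 in adult hippocampus, and 13.48 and 13.01 in adult heart. Pup hippocampus lay above every other group, and the groups of adults overlapped. Hippocampus exceeded heart by 1.47 ± 0.30 in pups (SE, 2.77-fold, limma adjusted p = 0.0100). The adult minus pup difference of Eef1a2 was 0.58 in heart (95% interval -0.18 to 1.34, limma adjusted p = 0.259) and -0.87 in hippocampus (-1.63 to -0.11, limma adjusted p = 0.110), and neither passed.

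Eef1b2 and Eef1d encode exchange factors that reload eEF1A with GTP. Eef1b2 read 13.22, 12.82 and 12.72 in pup hippocampus, 11.84, 10.93 and 12.70 in pup heart, 10.84 and 11.29 in adult hippocampus, and 10.28 and 10.13 in adult heart. It was lower in adults in hippocampus with a difference of -1.86 ± 0.45 (SE, 3.63-fold, limma adjusted p = 0.0242) and in heart with a difference of -1.62 ± 0.45 (3.08-fold, limma adjusted p = 0.0327). Eef1d was near the top of the scale in every sample, from 14.74 to 15.35, with adult minus pup differences of 0.10 in hippocampus (95% interval -0.41 to 0.61) and 0.06 in heart (-0.45 to 0.57). The Eef1b2 call in hippocampus was lost without any 1 of the 5 hippocampus samples (limma adjusted p from 0.0535 to 0.158). In heart it was lost without pup hippocampus replicate 2, pup heart replicate 1 or either adult heart sample (limma adjusted p from 0.0504 to 0.151).

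Eef2, which encodes the translocase eEF2, read 11.95, 11.72 and 11.55 in pup hippocampus, 11.28, 11.38 and 11.74 in pup heart, 10.35 and 10.72 in adult hippocampus, and 10.22 and 10.47 in adult heart. All pup samples lay above all adult samples. The difference was -1.20 ± 0.25 in hippocampus (SE, 2.30-fold lower, limma adjusted p = 0.0137) and -1.12 ± 0.25 in heart (2.18-fold lower, limma adjusted p = 0.0139). The other, dimmer probe set of Eef2 was called higher in adult hippocampus, by 1.10, so the direction rests on the probe set, and with the mean over both the differences were -0.05 (limma adjusted p = 0.880) and -0.16 (limma adjusted p = 0.583). Calls were lost without adult hippocampus replicate 1 in hippocampus (limma adjusted p = 0.111) and without adult heart replicate 1 or 2 in heart (limma adjusted p = 0.104 and 0.0539).

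Eef1e1, named with the elongation factors, encodes a subunit of the multi-tRNA synthetase complex. It read 11.50, 11.66 and 10.96 in pup hippocampus, 9.11, 9.23 and 9.96 in pup heart, 9.91 and 10.03 in adult hippocampus, and 9.50 and 9.12 in adult heart. Pup hippocampus stood above all other samples, which lay close together. It was higher in hippocampus than heart in pups by 1.94 ± 0.29 (SE, 3.83-fold, limma adjusted p = 0.00179) and lower in adult than pup hippocampus with a difference of -1.40 ± 0.32 (2.65-fold, limma adjusted p = 0.0202). The age call was lost without pup hippocampus replicate 1 or 2 or either adult hippocampus sample (limma adjusted p from 0.0552 to 0.121).

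Of the 5 enzymes that modify elongation factors, Eef1akmt2, an eEF1A lysine methyltransferase, was called lower in adult heart. It read 13.81, 14.23 and 13.13 in pup heart and 11.72 and 12.75 in adult heart, a difference of -1.49 ± 0.44 (SE, limma adjusted p = 0.0435), and technical arrays of 1 adult sample differed by up to 2.77. Without any 1 of the 3 pup hippocampus samples, pup heart replicate 1 or 2, or either adult heart sample the call was lost (limma adjusted p from 0.0538 to 0.296). Eef2k, the kinase that inactivates eEF2, read 9.10 to 10.51 in pup hippocampus, 9.64 to 11.01 in pup heart, 9.23 to 9.41 in adult hippocampus and 9.96 to 10.99 in adult heart, and was called in no comparison. The methyltransferases Eef1akmt1, Eef1aknmt and Eef2kmt were called in no comparison either.

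**Figure D2:**
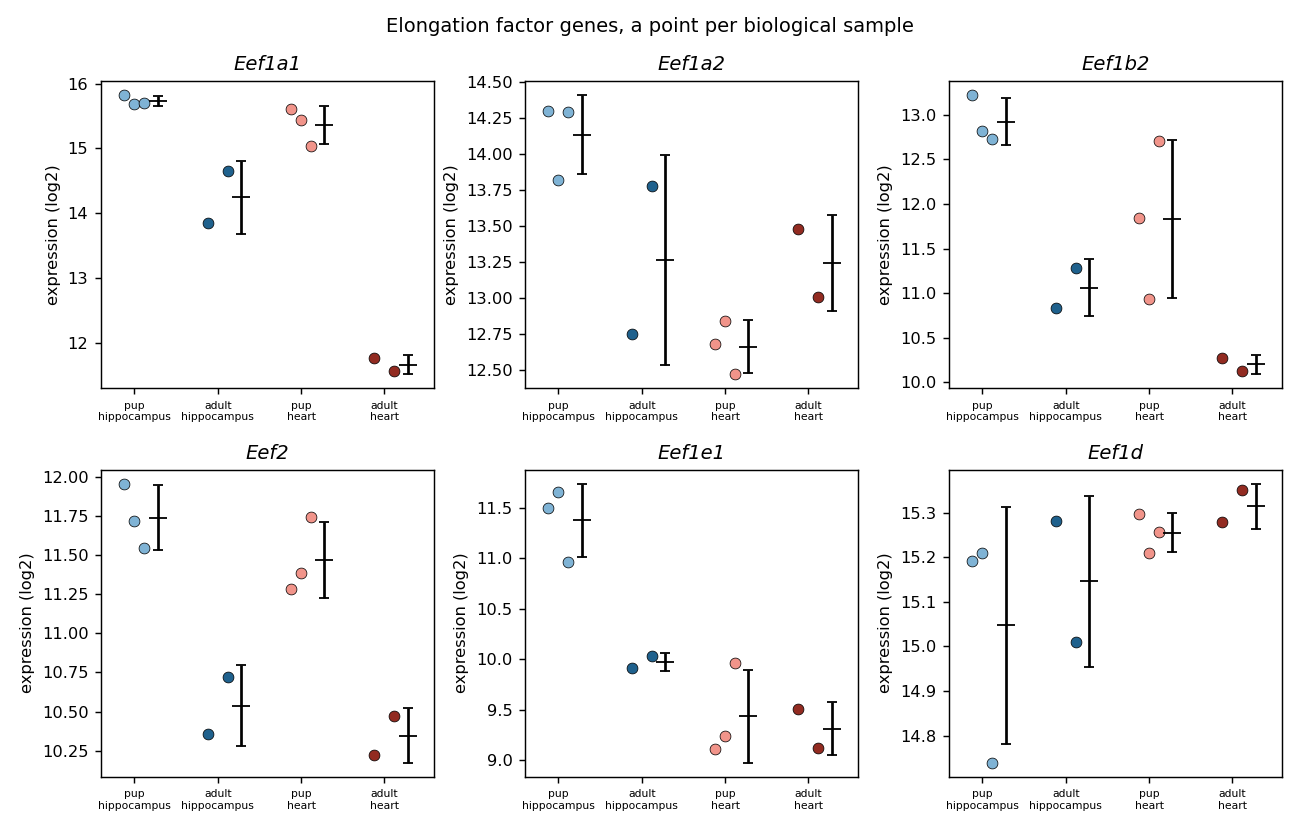
Expression (log2, an axis of its own for each gene, not starting at 0) of 6 elongation factor genes in the 10 biological samples, a point per sample, with mean and SD beside the points (3 pup and 2 adult samples). In the probe sets used, Eef1a1, Eef1b2 and Eef2 are lower in adults in both tissues, Eef1e1 is high in pup hippocampus only, and Eef1d spans 14.74 to 15.35.

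Among 7 factors of start site selection and subunit joining, Eif1ax differed between the tissues at both ages in its brightest probe set. Eif1ax encodes the X-linked form of eIF1A, which helps the small subunit scan for the start codon. It read 13.00, 12.62 and 12.05 in pup hippocampus, 9.22, 9.26 and 9.81 in pup heart, 11.05 and 11.22 in adult hippocampus, and 7.92 and 8.39 in adult heart. Every hippocampus sample lay above every heart sample. Hippocampus exceeded heart by 3.13 ± 0.29 in pups (SE, 8.73-fold, limma adjusted p = 0.000113) and by 2.98 ± 0.36 in adults (7.90-fold, limma adjusted p = 0.000893). This rests on the brightest of its 3 probe sets. The others were not called between tissues, at -0.39 and 0.80 in pups and both below 0 in adults (limma adjusted p = 0.0794 and 0.554), and with the mean over probe sets the difference was 1.18 in pups, still called, and 0.55 in adults (limma adjusted p = 0.116). Adults were lower than pups with differences of -1.42 ± 0.33 in hippocampus (limma adjusted p = 0.0207) and -1.27 ± 0.33 in heart (limma adjusted p = 0.0252). The age calls were lost in hippocampus without pup hippocampus replicate 1 or 2 or either adult hippocampus sample (limma adjusted p from 0.0552 to 0.127), and in heart without pup heart replicate 3 or either adult heart sample (limma adjusted p from 0.0570 to 0.174).

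Eif1a, the autosomal form of eIF1A, was not among the 10 largest differences and is named after its values were seen. It read 10.68, 10.53 and 10.14 in pup heart and 11.73 and 11.87 in adult heart, higher in adults by 1.35 ± 0.26 (SE, limma adjusted p = 0.00865), the direction opposite to that of Eif1ax. The call was lost without adult heart replicate 1 or 2 (limma adjusted p = 0.0525 and 0.0645) and with the mean over probe sets, at 0.37 (limma adjusted p = 0.345), the other probe set being at -0.62. Eif1ad, Eif1b, Eif5, Eif5b and Eif6 were called in no comparison. Eif6, which keeps the large subunit from joining early, varied widely, from 13.41 to 15.23.

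Of 8 genes of initiator tRNA delivery and of eIF2B, which recharges eIF2 with GTP, Eif2b1 had the largest rise of the 52 in both tissues. Eif2b1 encodes the alpha subunit of eIF2B. It read 9.18, 9.48 and 8.91 in pup hippocampus, 9.54, 10.20 and 9.15 in pup heart, 12.67 and 12.30 in adult hippocampus, and 12.19 and 12.66 in adult heart. All adult samples lay above all pup samples, in a gene with a single probe set, and technical arrays of 1 adult sample differed by up to 1.95. The difference was 3.30 ± 0.34 in hippocampus (SE, 9.82-fold, limma adjusted p = 0.00111) and 2.79 ± 0.34 in heart (6.93-fold, limma adjusted p = 0.00145). The beta subunit gene Eif2b2 had differences of 2.03 (limma adjusted p = 0.0594) and 1.58 (limma adjusted p = 0.113), and Eif2b3, Eif2b4 and Eif2b5 lay between -0.24 and 0.62. The Eif2b2 values are those of the brightest of its 3 probe sets. The other 2 were below 0 in hippocampus, and 1 of them was called lower in adult heart, at -1.07, so no direction can be given for Eif2b2.

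Eif2s2, the beta subunit of eIF2 itself, read 11.45, 10.96 and 10.42 in pup heart and 9.38 and 9.69 in adult heart, a difference of -1.41 ± 0.37 (SE, limma adjusted p = 0.0276). Of its 6 probe sets, 2 were called lower and 2 higher in adult heart, the latter by up to 3.18, so no direction can be given for the gene. The call was lost without pup heart replicate 1 or either adult heart sample (limma adjusted p from 0.0674 to 0.163). Eif2a and Eif2d, factors of non-canonical initiation, were called in no comparison. Eif2a read 12.73, 12.56 and 15.04 in pup hippocampus, where replicate 3 stood apart from the others.

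The eIF3 complex, the scaffold that holds the small subunit and the mRNA together, had a median of 0.11 in hippocampus over 11 subunit genes, and Eif3c alone was called, lower in adults. That holds for the brightest probe sets, since dimmer ones were called lower for Eif3a (2, at -1.41 and -1.57), Eif3e (2, at -3.07 and -2.73), Eif3i (-0.96) and Eif3l (-1.66), and none was called higher for these 4 genes. In heart the median was -0.69, with Eif3b, Eif3f and Eif3h called lower and none higher. Eif3f read 11.30, 10.91 and 11.02 in pup hippocampus, 10.87, 10.60 and 11.22 in pup heart, 10.12 and 10.37 in adult hippocampus, and 9.39 and 9.37 in adult heart. Pup and adult samples did not overlap in either tissue, and the heart difference was -1.52 ± 0.25 (SE, 2.87-fold lower, limma adjusted p = 0.00425). In hippocampus it was -0.83 (limma adjusted p = 0.0526), and the difference between tissues did not pass (limma adjusted p = 0.317). Eif3c read 13.54, 12.96 and 13.15 in pup hippocampus and 11.26 and 11.74 in adult hippocampus, lower with a difference of -1.72 ± 0.29 (SE, 3.29-fold, limma adjusted p = 0.00626), a call lost without adult hippocampus replicate 1 (limma adjusted p = 0.0654). None of its other 3 probe sets was called with age in hippocampus. The difference was -0.08 without probe sets of types _s_at, _x_at and _a_at (limma adjusted p = 0.923) and -1.05 with the most variable probe set (limma adjusted p = 0.157).

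The remaining heart calls of this complex, Eif3b at -0.96 (limma adjusted p = 0.0407) and Eif3h at -1.04 (limma adjusted p = 0.0367), were below the 10 largest and are named after their values were seen. Eif3b was lost without pup hippocampus replicate 2, pup heart replicate 1 or either adult heart sample (limma adjusted p from 0.0632 to 0.160). Eif3h was lost without those samples or pup heart replicate 2 (limma adjusted p from 0.0539 to 0.180). Eif3h was also lost with the mean over probe sets, at -0.66 (limma adjusted p = 0.0519). Eif3e spanned 13.77 to 14.70 in its brightest probe set with no call. Eif3a, Eif3d, Eif3i, Eif3k, Eif3l and Eif3m were called in no comparison.

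Of 13 genes of cap binding and the eIF4 group, 3 were called lower with age in hippocampus, and in heart 4 were called lower and 2 higher. Eif4e, the cap-binding protein, read 13.27, 13.64 and 14.43 in pup hippocampus, 13.97, 13.04 and 13.96 in pup heart, 11.78 and 11.35 in adult hippocampus, and 12.46 and 12.42 in adult heart. Pup and adult samples did not overlap in either tissue. The difference was -2.21 ± 0.40 in hippocampus (SE, 4.64-fold lower, limma adjusted p = 0.00836) and -1.22 in heart (limma adjusted p = 0.0605). These are from the brightest of 4 probe sets, and the other 3 were above 0 in both tissues. With the mean over probe sets the hippocampus difference was 0.26 (limma adjusted p = 0.625). A further one of its 4 probe sets gave a call of higher in adults, by 1.86 in hippocampus and 2.57 in heart, so the direction rests on the probe set, and the hippocampus call was lost without adult hippocampus replicate 2 (limma adjusted p = 0.0659).

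Eif4ebp1, the repressor that binds eIF4E until mTORC1 phosphorylates it, had the largest tissue difference of the 52 in pups. It read 9.43, 8.72 and 8.22 in pup hippocampus, 13.11, 11.79 and 13.02 in pup heart, 9.75 and 9.97 in adult hippocampus, and 10.83 and 11.12 in adult heart. Pup heart lay above every other sample, and adult heart lay above hippocampus at either age. Hippocampus was below heart in pups with a difference of -3.85 ± 0.41 (SE, 14.4-fold, limma adjusted p = 0.000242), and all 3 probe sets of the gene were called in that direction. In adults the tissue difference was -1.11 (95% interval -2.24 to 0.01, limma adjusted p = 0.157).

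With age Eif4ebp1 was lower in heart with a difference of -1.67 ± 0.46 (SE, 3.17-fold, limma adjusted p = 0.0317) and differed by 1.07 in hippocampus (limma adjusted p = 0.144). The difference between these differences was -2.74 (95% interval -4.19 to -1.28, limma adjusted p = 0.0530) and did not pass. The heart age call was lost without pup heart replicate 1 or 3 or either adult heart sample (limma adjusted p from 0.0759 to 0.169). Its paralog Eif4ebp2, the main 4E-binding protein of brain, read 13.56, 14.42 and 13.24 in pup hippocampus and 15.06 and 14.93 in adult hippocampus, a difference of 1.25 (limma adjusted p = 0.0649), and its brightest probe set was called in no comparison. Of its 5 probe sets 2 were called higher in adult hippocampus, by up to 3.06, and between adult tissues 1 was called higher and 1 lower.

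Eif4g2 encodes an eIF4G relative that lacks the eIF4E-binding site. It read 15.38, 15.38 and 15.45 in pup hippocampus, 15.04, 14.42 and 15.39 in pup heart, 12.67 and 13.05 in adult hippocampus, and 13.12 and 13.13 in adult heart. All adult samples lay below all pup samples with differences of -2.55 ± 0.29 in hippocampus (SE, 5.84-fold, limma adjusted p = 0.00149) and -1.83 ± 0.29 in heart (3.55-fold, limma adjusted p = 0.00379). In hippocampus all 5 of its probe sets were below 0, and 4 were called lower. In heart the 5 disagreed, with 2 called higher, by up to 1.41, and 2 lower. With the mean over probe sets the heart difference was -0.27 (limma adjusted p = 0.406). The pup values were close to the highest value of the table. Eif4g3, another scaffold gene, was higher in adult heart by 1.19 ± 0.37 (SE, limma adjusted p = 0.04997), with 12.89, 11.90 and 12.26 in pups and 13.23 and 13.85 in adults. Named after its values were seen, it was at the threshold and was lost without any 1 sample other than pup heart replicate 1 (limma adjusted p from 0.0512 to 0.278) and with the mean over probe sets, at 0.50 (limma adjusted p = 0.156).

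Eif4enif1, the eIF4E transporter that carries eIF4E to the nucleus and to repressed mRNA, was high in adult heart alone. It read 11.02, 10.70 and 11.00 in pup hippocampus, 11.61, 10.84 and 11.27 in pup heart, 10.56 and 10.98 in adult hippocampus, and 12.30 and 12.92 in adult heart. Adult heart exceeded pup heart by 1.37 ± 0.30 (SE, 2.59-fold, limma adjusted p = 0.0143), and adult hippocampus was below adult heart with a difference of -1.84 ± 0.33 (3.59-fold, limma adjusted p = 0.00555). The age call was lost without adult heart replicate 2 (limma adjusted p = 0.116).

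Of the genes of the eIF4A helicase and its partners, Eif4a1 stayed between 14.96 and 15.71 in all samples, with differences of 0.37 in hippocampus (95% interval -0.12 to 0.86) and -0.13 in heart (-0.63 to 0.36), all close to the highest value of the table. A dimmer Eif4a1 probe set was called lower in adults in the fit over single probe sets, at -2.39 in hippocampus (limma adjusted p = 0.00335) and -1.85 in heart (limma adjusted p = 0.00689). Eif4a2 was higher in hippocampus than in heart in adults, 12.70 and 12.90 against 11.13 and 11.13, by 1.67 ± 0.50 (SE, 3.18-fold, limma adjusted p = 0.0439). That call was lost without pup hippocampus replicate 2, pup heart replicate 1 or any 1 adult sample (limma adjusted p from 0.0551 to 0.178).

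Eif4b, a helicase cofactor, was lower in adults with differences of -1.09 ± 0.31 in hippocampus (SE, limma adjusted p = 0.0450) and -1.25 ± 0.31 in heart (limma adjusted p = 0.0222). It was named after its values were seen, and another Eif4b probe set was called higher in adult hippocampus, by 1.02. Its calls were lost in hippocampus without any 1 hippocampus sample or pup heart replicate 1 (limma adjusted p from 0.0565 to 0.287), and in heart without pup heart replicate 3 or adult heart replicate 2 (limma adjusted p = 0.0516 and 0.171). With the mean over probe sets neither was called, and the hippocampus value changed sign, at 0.0370 (limma adjusted p = 0.952) against -0.77 in heart (limma adjusted p = 0.111).

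Eif4h, a further helicase cofactor, read 14.73, 14.41 and 12.71 in pup hippocampus, 12.20, 12.27 and 12.55 in pup heart, 13.02 and 13.70 in adult hippocampus, and 10.65 and 10.18 in adult heart. Adult heart stood below every other sample with a difference of -1.93 ± 0.54 against pup heart (SE, 3.80-fold, limma adjusted p = 0.0340) and adult hippocampus exceeded it by 2.94 ± 0.59 (7.69-fold, limma adjusted p = 0.00850). Among its 6 probe sets 3 were called lower and 1 higher in adult heart against pup heart, the latter by 1.75. With age in hippocampus 2 were called lower and 1 higher. Between adult tissues 3 were called higher in hippocampus and 1 lower, at -2.50. With the mean over probe sets both calls were lost, at -0.69 with age (limma adjusted p = 0.0720) and 0.37 between tissues (limma adjusted p = 0.358). The age call was lost without any 1 heart sample (limma adjusted p from 0.0546 to 0.181) and the tissue call without adult hippocampus replicate 2 or adult heart replicate 2 (limma adjusted p = 0.0689 and 0.0616). Eif4a3, an exon junction helicase, and the cap-binding relatives Eif4e2 and Eif4e3 were called in no comparison.

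**Figure D3:**
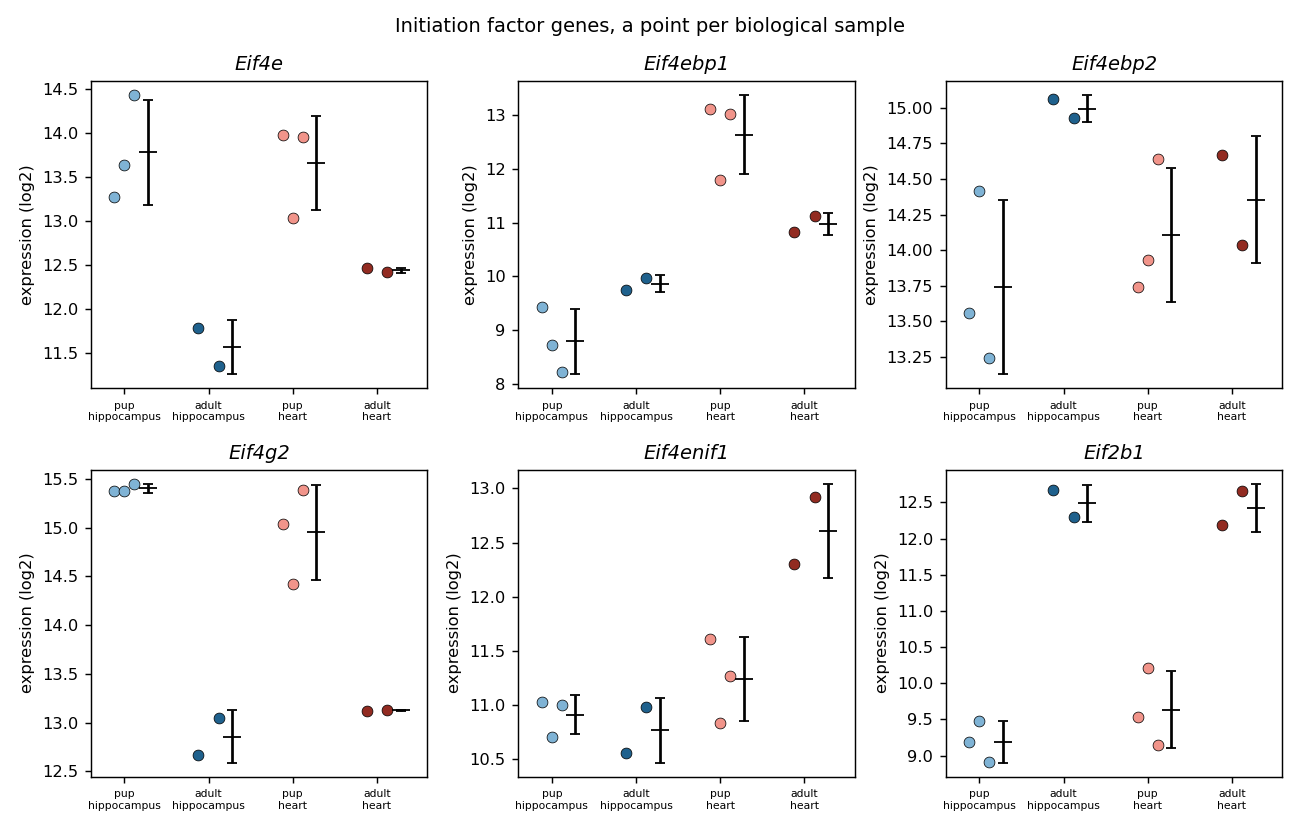
Expression (log2, an axis of its own for each gene, not starting at 0) of 6 initiation factor genes in the 10 biological samples, a point per sample, with mean and SD beside the points (3 pup and 2 adult samples). Eif4ebp1 is high in pup heart, Eif4enif1 in adult heart and Eif2b1 in adults of both tissues. Eif4e and Eif4g2 read lower in adults in their brightest probe sets. Other probe sets were called higher for Eif4e in both tissues and for Eif4g2 in heart only.

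Both eIF5A genes were called with age in hippocampus, in opposite directions. Eif5a encodes the factor that carries hypusine and helps the ribosome past stalling stretches. It read 15.23, 15.24 and 15.35 in pup hippocampus, 15.05, 15.00 and 14.18 in pup heart, 12.99 and 13.43 in adult hippocampus, and 12.86 and 12.84 in adult heart. All adult samples lay below all pup samples with differences of -2.06 ± 0.30 in hippocampus (SE, 4.17-fold, limma adjusted p = 0.00352) and -1.89 ± 0.30 in heart (3.71-fold, limma adjusted p = 0.00350). The pup values were again close to the highest value of the table. Its other probe set was called lower in adult hippocampus, at -1.18, and not in heart, at -0.73.

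Eif5a2, its paralog, read 8.26, 8.09 and 7.86 in pup hippocampus, 8.71, 9.01 and 8.24 in pup heart, 9.30 and 9.39 in adult hippocampus, and 8.12 and 8.61 in adult heart. It was higher in adult than pup hippocampus by 1.27 ± 0.28 (SE, 2.42-fold, limma adjusted p = 0.0180), and in heart the difference was -0.29 (95% interval -0.93 to 0.35). The hippocampus call was lost without pup hippocampus replicate 3 or either adult hippocampus sample (limma adjusted p from 0.0583 to 0.0986).

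Between tissues 4 of the 52 genes were called in pups, Eef1a2, Eef1e1 and Eif1ax higher in hippocampus and Eif4ebp1 lower, where 15.7% of all genes were called, 8.27% higher and 7.43% lower. In adults 5 were called, Eef1a1, Eif1ax, Eif4a2 and Eif4h higher in hippocampus and Eif4enif1 lower, where 19.7% of all genes were called, 9.46% higher and 10.2% lower. The median hippocampus minus heart difference was -0.09 over the 52 genes and -0.10 over all genes in pups, and 0.19 and -0.03 in adults. Hippocampus and heart samples did not overlap for 18 of the 52 in pups, against 31.7% of all genes, and for 33 in adults, against 66.0%. Each of the 4 pup calls was kept without any 1 sample, pup hippocampus replicate 1 with its high Actc1 included. In adults fewer were called without either adult hippocampus sample or adult heart replicate 2, which leaves a group of 1 sample. For replicate 2 of either tissue fewer of all genes were called too. Without pup hippocampus replicate 2 the adult number was 4, and the number over all genes is not given here. The adult number was 8 without pup heart replicate 3 and 9 without pup heart replicate 2, where 4329 and 4055 of all genes were called. In pups it was 7 without pup heart replicate 3, where 3661 of all genes were called.

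**Figure D4:**
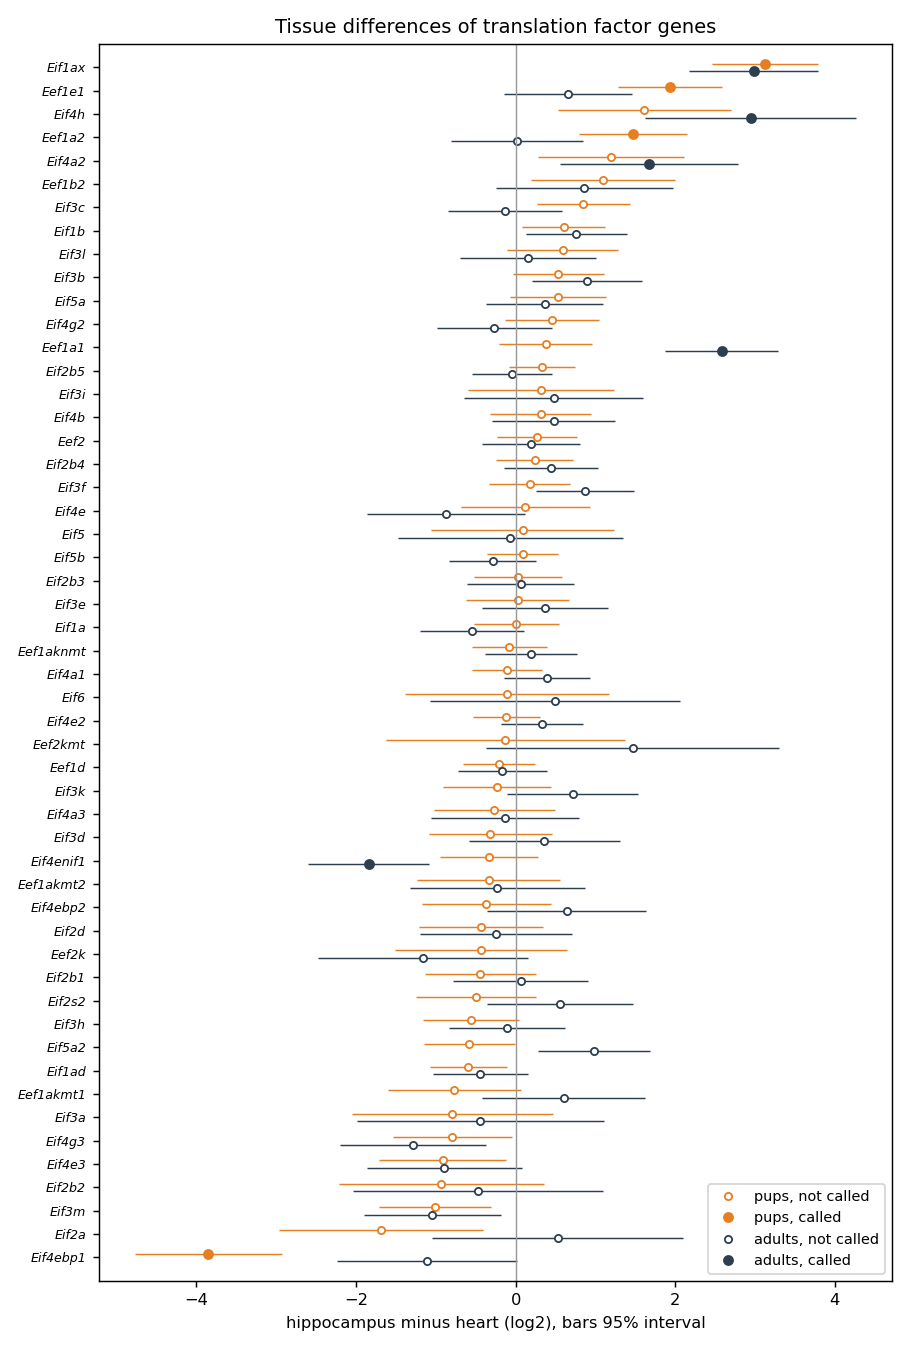
Hippocampus minus heart difference (horizontal axis, log2) of each of the 52 genes in pups and in adults, with 95% intervals and filled points for called differences. Eif1ax is called at both ages, Eif4ebp1 has the lowest pup value at -3.85, and most intervals include 0.

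Other genes of the pathway were measured by lists of its regulators and partners. For the counts below, 16.1% of all genes were called with age in hippocampus and 20.6% in heart. Between tissues 15.7% of all genes were called in pups and 19.7% in adults. Of 14 mTORC1 and eIF4E regulators none was called with age in hippocampus by limma (0 at an unadjusted p under 0.05), 2 were lower in adult heart and none was higher, with medians of -0.26 and 0.07. Pdcd4, an eIF4A inhibitor, was lower in adult heart with a difference of -2.09 (limma adjusted p = 0.0304) and higher in hippocampus than in heart by 2.11 in pups (limma adjusted p = 0.0210) and 3.22 in adults (limma adjusted p = 0.00711). Rheb, the GTPase that activates mTORC1, was lower in adult heart with a difference of -1.78 (limma adjusted p = 0.0116). Mknk2, an eIF4E kinase, was lower in hippocampus than in heart in adults with a difference of -2.23 (limma adjusted p = 0.0358).

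Of 8 genes of the eIF2 kinases and the stress response, 1 was lower in adult hippocampus and 2 in adult heart, and none was higher. Ddit3, the stress transcription factor CHOP, was lower in adult hippocampus with a difference of -2.20 (limma adjusted p = 0.0106) and in adult heart with a difference of -1.89 (limma adjusted p = 0.0146), and Eif2ak1, the heme-regulated kinase, in heart with a difference of -1.17 (limma adjusted p = 0.0115). Between tissues Ppp1r15b, a subunit of the eIF2 phosphatase, was higher in adult hippocampus by 1.41 (limma adjusted p = 0.0344), and no gene of the list was called in pups by limma (1 at an unadjusted p under 0.05).

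Of 9 termination and poly(A)-binding genes, 2 were lower in adult hippocampus and none higher, and in heart 2 were lower and 1 higher. Pabpc4, a poly(A)-binding protein, was lower with differences of -1.78 in hippocampus (limma adjusted p = 0.00320) and -1.48 in heart (limma adjusted p = 0.00477). Its partner Paip1 was lower in adult hippocampus with a difference of -1.37 (limma adjusted p = 0.0262). In heart the inhibitor Paip2 was lower with a difference of -2.86 (limma adjusted p = 0.0227) and its paralog Paip2b higher by 1.43 (limma adjusted p = 0.0256). Between tissues in pups, Paip1 was higher in hippocampus by 1.45 (limma adjusted p = 0.0112) and the release factor gene Gspt1 by 1.01 (limma adjusted p = 0.0152), and none was called in adults by limma (1 at an unadjusted p under 0.05).

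Of 9 hypusine and diphthamide genes, whose enzymes modify eIF5A and eEF2, Dph7 was higher in adults by 1.36 in hippocampus and 1.10 in heart, Dph5 was higher in heart by 1.57, and Dnajc24 was lower with differences of -1.98 and -1.81. Between tissues Dph2 was higher in pup hippocampus by 0.72, and in adults Dph3 was higher in hippocampus by 1.20 and Dph5 lower with a difference of -1.70, with limma adjusted p from 0.0186 to 0.0460 over these calls. Of 9 mitochondrial translation factors only Tsfm, the mitochondrial elongation factor Ts, was called, higher in adult hippocampus by 1.88 (limma adjusted p = 0.0490). Of the 8 members whose mRNAs are known for a 5′TOP tract, 3 were lower in adult hippocampus and 5 in adult heart, Eef1a1, Eef1b2, Eef2, Eif3f and Eif3h, with medians of -0.85 and -1.08, and none was higher. Of all genes 7.44% were lower in adult hippocampus and 9.38% in adult heart. These calls are those given above for the same genes, and the other Eef2 probe set was called higher in adult hippocampus, by 1.10.

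Probe sets of one gene often disagreed, and the cause was not tested. Of the 52 genes 36 had several probe sets, and genes said above to be called in no comparison were judged by the brightest. Among the 12 hippocampus age calls 4 rested on a gene with 1 probe set, and of the other 8, another probe set had the same call for 3 and the opposite call for 3 (Eef2, Eif4b and Eif4e). Among the 18 heart age calls 7 rested on 1 probe set, and of the other 11, another had the same call for 6 and the opposite call for 3 (Eif2s2, Eif4g2 and Eif4h). The 3′ minus 5′ difference of the Gapdh control probe sets, a measure of RNA quality and labelling, was 2.90 to 4.97 in pup hippocampus, 0.72 to 3.80 in pup heart, 0.66 to 1.60 in adult hippocampus and 1.50 to 1.80 in adult heart. That of the actin controls was 1.84 to 2.48 in pup hippocampus, 0.39 to 0.82 in pup heart, -0.03 to 0.31 in adult hippocampus and -0.16 to 0.16 in adult heart. Pup and adult arrays did not overlap in either control in hippocampus, nor in the actin control in heart, and the part of this shift in the age differences was not tested. Pup hippocampus and pup heart did not overlap in the actin control either, and its part in the pup tissue differences was not tested.

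**Figure D5:**
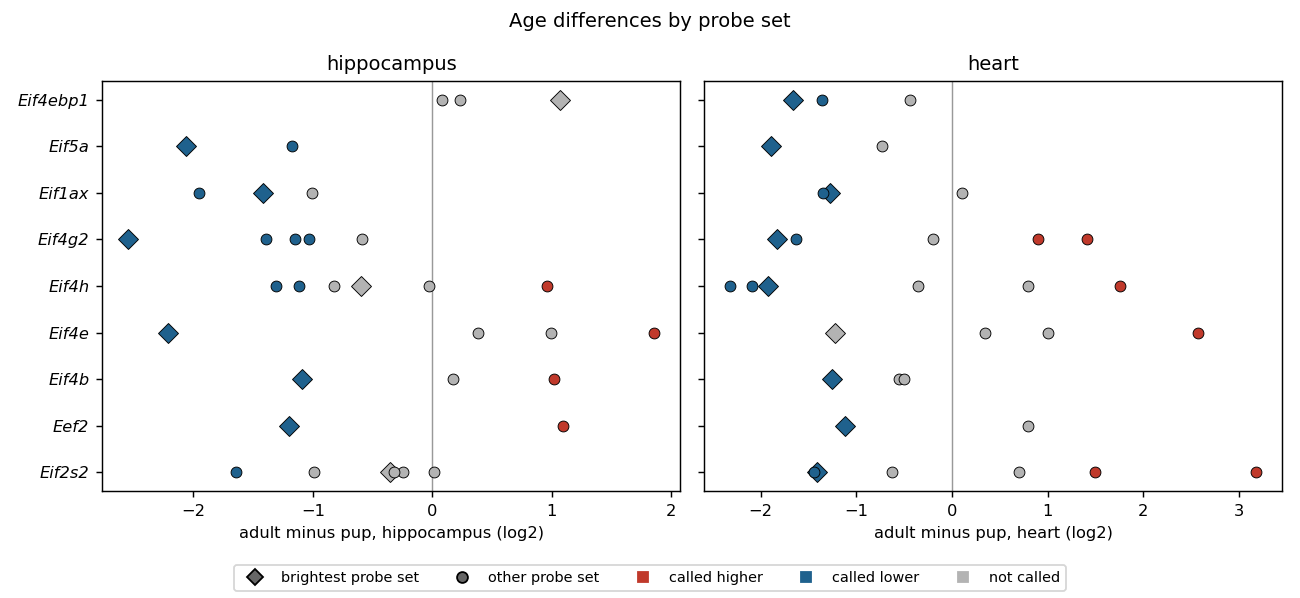
Adult minus pup difference (horizontal axis, log2) of each probe set of 9 genes in hippocampus and heart, with diamonds for the brightest probe set, the one used for the gene, and colour for the call. Probe sets of Eif4ebp1, Eif5a and Eif1ax give no opposite calls. Probe sets are called each way for Eif4e, Eif4b, Eef2 and Eif4h in hippocampus and for Eif2s2, Eif4g2 and Eif4h in heart.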

How the data were processed

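The authors summarized the arrays with RMA (version 2.0 in the submitters' processing notes) and deposited log2 expression values for 45101 probe sets, from 2.67 to 16.0. How background was corrected is not given in the sources used here, nor is a detection filter, and no filter on low values was applied. Of the probe sets 34958 named 1 gene, 932 several and 9211 none here. Each gene took its probe set with the highest mean over the 14 arrays. The members had 137 probe sets, and 8 probe sets that named a member with other genes were left out. Technical arrays were averaged, and the 10 samples were fitted with limma (version 3.58.1, R 4.3.3) with a mean for each of 4 groups, 6 residual and 3.10 prior degrees of freedom. Medians of standard errors were 0.30 to 0.48, and sample number limits the precision. The fit was tested on simulated data. Named with values were the 10 largest called differences in each comparison, every member called in the interaction, a fixed list of members, and up to 4 called genes of each pathway list. Members, lists and tests were chosen with earlier results of these data known. Fixed-list genes Eef1g, Eif2s1, Eif4g1 and Eif4ebp3 are not analysed here. Scaling, probe set choice, filters, tests, a replicate block and left-out samples were tried as alternatives for the members. Fitting every probe set singly, and leaving out pup hippocampus replicate 1 for its cardiomyocyte markers, were chosen after seeing the data.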

Additional observations from a re-analysis of the deposited data

Results flagged for a closer look

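Eef1a1 was picked out because its age difference differed between tissues in the interaction test: -3.70 in heart and -1.49 in hippocampus, a difference of -2.21 (limma adjusted p = 0.0222, lower in adults in both tissues). Under the alternatives that kept all samples and had no replicate block its limma adjusted p ranged from 0.00501 to 0.0316.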

How the results depend on the processing

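Numbers of genes called (12 and 18 with age in hippocampus and heart, 4 and 5 between tissues in pups and adults, 1 in the interaction) changed with the samples, the probe set and the test. The numbers over all 18194 genes changed too. With the most variable probe set the members called were 19 with age in hippocampus, 8 and 10 between tissues and 5 in the interaction. Over all genes 3452, 3512, 5135 and 958 were called with that setting. With each adult array as a replicate they were 19, 7, 14 and 4 members for the same comparisons, and 4303, 2752, 6137 and 1754 over all genes. The mean over probe sets gave 9 between adult tissues and 2 in the interaction, where 3944 and 588 of all genes were called. Probe sets without _s_at, _x_at and _a_at types gave 2 in the interaction, where 581 of all genes were called. Quantile normalization gave 8 between adult tissues (6 higher, 2 lower), where 3624 of all genes were called. With only the groups compared, 7 were called in heart with age and 10 between adult tissues, where 1654 and 4555 of all genes were called. The methods' t-test called 0 in all 4 comparisons at its rate of 0.1%, and 0 of all genes too. At 5% it called 3, 0, 5 and 0 of the 52. At that rate 1034 of all genes were called with age in hippocampus, 67 in heart and 0 between adult tissues. Its unadjusted p was under 0.05 for 20, 17, 8 and 13 of the 52, and the share of all genes at that level was not counted. The cause of these shifts was not tested.

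Leaving out each sample in turn gave 4 to 17 calls with age in hippocampus, 5 to 19 in heart, 4 to 7 between pup tissues, 3 to 9 between adult tissues and 0 to 2 in the interaction. The medians over the 52 genes ran from -0.09 to -0.05, from -0.47 to -0.27, from -0.13 to 0.10, from 0.17 to 0.29 and from -0.25 to -0.14. The hippocampus age median was -0.28 with the mean over probe sets or without the named probe set types, -0.43 with the most variable probe set and -0.37 among genes above the median level. The heart age median was -0.42 with scaling by the percentile range, -0.40 with quantile normalization, and -0.50 with the most variable probe set or among genes above the median level. The percentile scaling moved the median of all genes in heart from 0.09 to -0.04. The tissue median was 0.0193 in pups and 0.0700 in adults with the mean over probe sets, and 0.0207 in adults with the most variable probe set.

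Among differences called in either setting, directions turned only with the choice of probe set. Signal was not compared with background, so differences of dim genes such as Eif5a2 (7.86 to 9.39) rest on unchecked signal. With the most variable probe set the hippocampus age difference was 1.10 for Eef2, -2.73 for Eif3e, -2.39 for Eif4a1, 0.18 for Eif4b and 1.86 for Eif4e, and the heart age difference 0.80 for Eef2, 3.18 for Eif2s2, 2.57 for Eif4e and 1.41 for Eif4g2. The tissue difference was then -1.36 for Eef2 and -1.43 for Eif4g2 in pups and -3.19 for Eif2s2 in adults, and the interaction 3.43 for Eif2s2. With the mean over probe sets the age difference was -1.40 for Eif3e, 0.0370 for Eif4b and 0.26 for Eif4e in hippocampus and 0.32 for Eif2s2 in heart, and the adult tissue difference of Eif2s2 was -0.89. Without the named probe set types the age difference was -3.07 for Eif3e and 0.96 for Eif4h in hippocampus and 1.75 for Eif4h in heart, the adult tissue difference was -2.57 for Eif3e and -0.38 for Eif4h, and the interaction of Eif3e was 3.65.

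Deviations of same-numbered hippocampus and heart samples from their group means correlated at 0.20, -0.09 and 0.0017 in pups. The sample titles do not say whether same-numbered samples share an animal. These correlations cannot decide it, since tissues of an animal need not deviate together. With a replicate block 9, 12, 4, 4 and 0 members were called, and the Eef1a1 interaction was lost (limma adjusted p = 0.0844). In that interaction 45 of all genes were called, and the numbers over all genes for the other comparisons are not given here. Of the 40 calls of single genes, percentile scaling and each adult array as a replicate kept 39, quantile normalization 38, a trended robust prior 37, the most variable probe set 32 (6 reversed), the replicate block 28 and the mean over probe sets 27 (3 reversed). Of 39 that could be tested, leaving out genes below the median level kept 37, only the groups compared 28 and the t-test 6 at 5% and 0 at 0.1%. Probe sets without the named types kept 28 of 32 (2 reversed), and leaving out a sample kept 24 to 36.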
